A study of Mus musculus with 24 samples.

Results

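Prl2c2 and Prl2c3 encode proliferins, secreted hormones of the prolactin family, and Cck encodes the precursor of the peptide hormone cholecystokinin. These 3 genes were chosen, among 55421 mouse genes with an Ensembl identifier in the deposited count table, for their absence on day 0 and their high counts on day 7 of culture. Because the members were selected on these levels, their change over the days of culture is given as a description, without a test. The difference between genotypes was not used to select them and was tested.

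AEC2s came from the lungs of global Krt8 knockout mice (Krt8–/–) and of Krt8+/+ mice. Biological replicates are numbered 1, 2, and 3, each with a batch label that both genotypes and all days share. Cells were sampled fresh (day 0) or after 1, 3, or 7 days in 2D culture, which gave 8 groups of 3 libraries. The deletion is carried by every cell of the animal rather than by AEC2s alone. The library totals ran from 10184439 to 19483386 counts. Levels are given as CPM, counts per 1e6 of the library total scaled with TMM factors, which correct for differences in library composition, and as mean ± SD over 3 replicates. Replicates have no order.

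Proliferins are made in quantity by trophoblast giant cells of the mouse placenta, where they promote the growth of blood vessels, and were first found as transcripts of growth-stimulated mouse fibroblasts. Prl2c2 and Prl2c3 are near-identical copies, and proliferin binds the cation-independent mannose 6-phosphate receptor, Igf2r. Cholecystokinin is made by endocrine cells of the gut and by neurons, is cut from its precursor by prohormone convertases and carboxypeptidase E, and acts through the receptors Cckar and Cckbr. Neither hormone is a product that resting AEC2s, the surfactant-making cells of the alveolus, are known for.

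Krt8, the targeted gene, was measured first as a check of the labels. In Krt8+/+ AECs, it was at 484, 551, and 533 CPM in replicates 1, 2, and 3 on day 0, at 3156, 3390, and 3066 CPM on day 1, at 2596, 3863, and 3340 CPM on day 3, and at 4038, 5088, and 2954 CPM on day 7. In Krt8–/– AECs, replicates 1, 2, and 3 gave 36.4, 31.1, and 21.2 CPM on day 0 and 47.4, 28.5, and 38.6 CPM on day 1. They gave 29.9, 28.7, and 32.2 CPM on day 3 and 29.8, 34.6, and 26.2 CPM on day 7. Every Krt8–/– library was below every Krt8+/+ library. The log2 difference, Krt8–/– minus Krt8+/+, was −4.15 on day 0 (adjusted p = 2.7e-09, edgeR quasi-likelihood test with Benjamini-Hochberg adjustment over 18046 genes) and −7.06 on day 7 (adjusted p = 1.1e-12), and Krt8 was lower in 3 of 3 replicates on both days.

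Prl2c2 had no count on day 0 in any of the 6 libraries of both genotypes. On day 1, it had 21, 3, and 16 counts in replicates 1, 2, and 3 of Krt8+/+ AECs and 0, 10, and 9 counts in Krt8–/– AECs. On day 3, its level was 69.3, 14.3, and 49.9 CPM in Krt8+/+ AECs and 15.3, 40.5, and 16.5 CPM in Krt8–/– AECs. The day 3 libraries of both genotypes overlapped, and each lay above every day 1 library, of which the highest was at 1.54 CPM. On day 7, Prl2c2 reached 114, 253, and 613 CPM in Krt8+/+ AECs and 244, 54.5, and 374 CPM in Krt8–/– AECs. Replicate 3 was the highest library of each genotype on day 7, and the lowest was replicate 1 in Krt8+/+ AECs and replicate 2 in Krt8–/– AECs. The group means were 0.958 ± 0.654, 44.5 ± 27.9, and 327 ± 257 CPM on days 1, 3, and 7 in Krt8+/+ AECs, and 0.449 ± 0.390, 24.1 ± 14.2, and 224 ± 161 CPM in Krt8–/– AECs.

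Against a floor of 3 counts over the 3 libraries of day 0, Prl2c2 on day 7 was at least 3789-fold higher in Krt8+/+ AECs and at least 2885-fold higher in Krt8–/– AECs. From day 3 to day 7, the counts summed over replicates were higher by a factor of 7.48 (95% interval 7.15 to 7.83) in Krt8+/+ AECs and 9.48 (8.91 to 10.1) in Krt8–/– AECs. Floors and intervals cover counting error only, and the replicates were spread more widely. Within single replicates, the ratio of day 7 to day 3 ran from 1.35 in replicate 2 of Krt8–/– AECs to 22.7 in replicate 3 of Krt8–/– AECs, with a median of 14.1 over 6 ratios. In bulk libraries, a larger share of cells with the transcript and more of it per cell cannot be told apart.

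Prl2c3, the second proliferin, was the only member with any count on day 0. It had 2, 0, and 1 counts in replicates 1, 2, and 3 of Krt8+/+ AECs on that day and 0 in each Krt8–/– library. On day 1, there were 11, 54, and 0 counts in Krt8+/+ AECs and 0, 13, and 2 counts in Krt8–/– AECs. A single library, replicate 2 of Krt8+/+ AECs, thus held most of the day 1 counts. On day 3, Prl2c3 was at 15.5, 6.93, and 8.50 CPM in Krt8+/+ AECs and at 11.7, 6.26, and 9.71 CPM in Krt8–/– AECs. Replicate 1 was the highest and replicate 2 the lowest in both genotypes, which overlapped. On day 7, the values were 91.1, 196, and 256 CPM in Krt8+/+ AECs and 59.6, 49.8, and 320 CPM in Krt8–/– AECs. Replicate 3 was again the highest of each genotype, and the genotypes overlapped.

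The means of Prl2c3 were 10.3 ± 4.58 CPM on day 3 and 181 ± 83.2 CPM on day 7 in Krt8+/+ AECs, and 9.23 ± 2.76 and 143 ± 153 CPM in Krt8–/– AECs. With its 3 counts on day 0, the ratio of day 7 to day 0 in Krt8+/+ AECs was 2049 (counting interval 701 to 9936), and in Krt8–/– AECs Prl2c3 was at least 1784-fold higher on day 7. Its ratio of day 7 to day 3 was 17.7 (16.1 to 19.4) in Krt8+/+ AECs and 16.0 (14.5 to 17.7) in Krt8–/– AECs. Per kb of exon, Prl2c2 was at 40.8 CPM and Prl2c3 at 7.59 CPM on day 3 in Krt8+/+ AECs. In each of the 6 replicates, Prl2c3 was higher on day 7 than on day 3, by factors from 5.09 to 33.0.

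**Figure D1:**
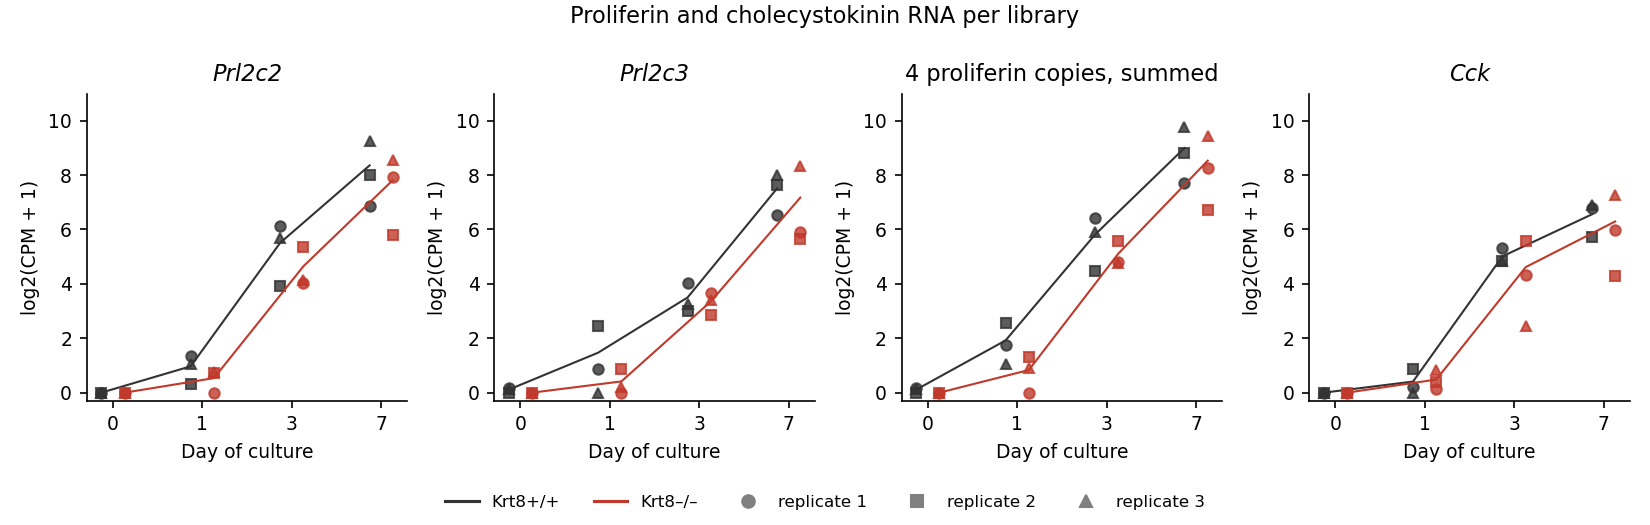
RNA of Prl2c2, Prl2c3, the sum of 4 proliferin copies, and Cck in each of 24 libraries, as log2(CPM + 1), against the day of culture. Dark symbols stand for Krt8+/+ and red for Krt8–/–, symbols mark the 3 replicates, and lines join the group means. All day 0 libraries sit at or near 0, and the genotypes overlap on days 3 and 7.

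How the reads were divided between the proliferins is uncertain, because the genes are almost the same in sequence. In the GRCm38 annotation of GENCODE, Prl2c2 lies at chr13:12996125-13005383 on the minus strand and Prl2c3 at chr13:12790816-12800079 on the minus strand. Their coding sequences of 672 bases differ at 3 positions (99.6% identity), and their transcripts are 99.5% identical. Only 10.5% of the 50-base windows of the Prl2c2 transcript, and 21.4% of those of Prl2c3, occur in none of the other copies, and at 100 bases these shares are 33.6% and 37.7%. The coding bases 200 to 319 are shown here because they hold 2 of the 3 differing positions, marked by capitals, and leave a read that falls between them without a base that tells the copies apart.
Prl2c2: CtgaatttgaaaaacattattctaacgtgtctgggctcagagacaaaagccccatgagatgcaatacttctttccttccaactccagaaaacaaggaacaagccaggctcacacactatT
Prl2c3: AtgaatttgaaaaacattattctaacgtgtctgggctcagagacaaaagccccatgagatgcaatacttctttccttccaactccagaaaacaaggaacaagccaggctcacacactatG
The way such reads were treated can be read from genes with identical transcripts. Of 314 groups of genes with identical transcript sequences, 43 had counts, in 39 of these every gene of the group had counts, and in 24 all genes had the same total. Reads that fit several genes were thus shared in most of these groups, though not always in equal parts and not in all groups. The table holds whole numbers although the named counter estimates fractions, and the read length is not known, so how the reads of Prl2c2 and Prl2c3 were divided is not known.

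The share of Prl2c2 in the counts of Prl2c2 and Prl2c3 together ranged from 52.3% to 86.6% over the 12 libraries of days 3 and 7, with a median of 65.1%. Prl2c2 thus held the larger share in each of them. On day 3, it was 81.7%, 67.4%, and 85.5% in replicates 1, 2, and 3 of Krt8+/+ AECs and 56.6%, 86.6%, and 62.9% in Krt8–/– AECs. On day 7, it was 55.7%, 56.4%, and 70.6% in Krt8+/+ AECs and 80.4%, 52.3%, and 53.9% in Krt8–/– AECs. Shares of both days overlapped, and neither genotype held the higher share throughout. How far this division reflects the counting of shared reads was not tested, so the sum of the copies is given beside each gene.

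**Figure D2:**
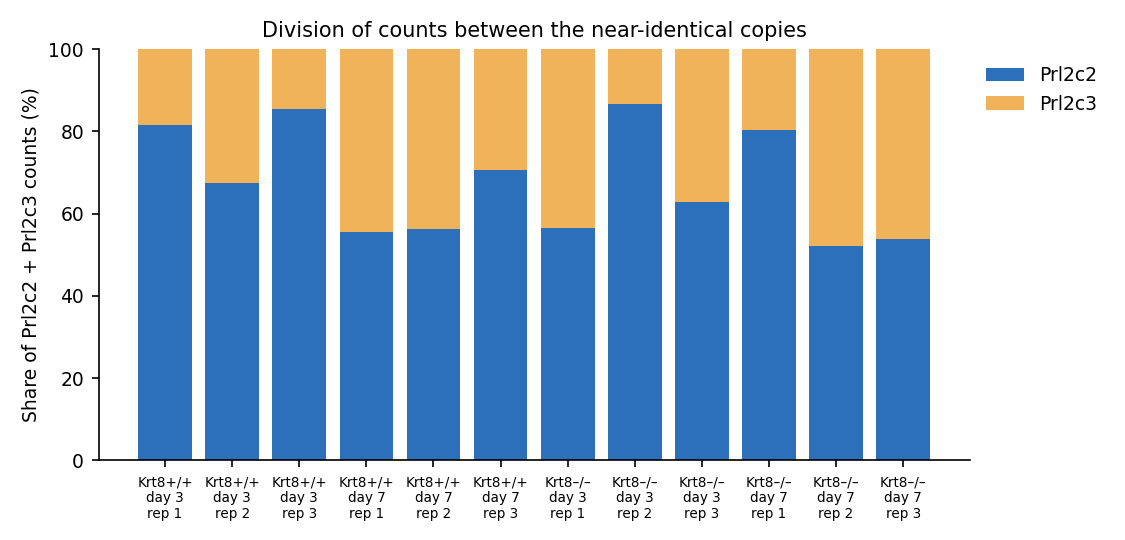
Share, in percent, of Prl2c2 (blue) and Prl2c3 (orange) in the summed counts of both genes, for each of the 12 libraries of days 3 and 7. The blue share lies between 52.3% and 86.6%, with no separation of the genotypes.

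The remaining copies with an entry in the table, Prl2c5 and Prl2c1, were far below the members. Prl2c5 (chr13:13182715-13191923, plus strand), whose coding sequence is 97.0% identical to that of Prl2c2, had at most 27 counts in a library. It had 45 counts on day 7 in Krt8+/+ AECs and 30 in Krt8–/– AECs, against 0 on day 0, and was tested only because of its counts in culture, so no test of it is given. Prl2c1 (chr13:27849342-27857788, plus strand; 94.0% identical) had at most 17 counts. Neither had a count on day 0, Prl2c4 has no entry, and whether these few reads stem from Prl2c2 or Prl2c3 was not tested. The sum of the 4 copies was 85.4, 21.4, and 58.8 CPM in replicates 1, 2, and 3 of Krt8+/+ AECs on day 3 and 27.1, 47.2, and 26.5 CPM in Krt8–/– AECs. On day 7, it was 206, 451, and 871 CPM in Krt8+/+ AECs and 305, 104, and 696 CPM in Krt8–/– AECs. The summed level was higher on day 7 than on day 3 in 6 of 6 replicates, by factors from 2.21 to 26.3.

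Cck, at chr9:121489824-121495694 on the minus strand, had no count on day 0 in any library. On day 1, it had 2, 10, and 0 counts in replicates 1, 2, and 3 of Krt8+/+ AECs and 1, 5, and 10 counts in Krt8–/– AECs. On day 3, Cck was at 38.8, 27.3, and 27.7 CPM in Krt8+/+ AECs and at 19.1, 47.0, and 4.50 CPM in Krt8–/– AECs. The Krt8+/+ libraries of day 3 lay close together, whereas the Krt8–/– libraries spread on both sides of them. On day 7, Cck was at 110, 51.5, and 118 CPM in Krt8+/+ AECs and at 61.7, 18.7, and 152 CPM in Krt8–/– AECs. Replicate 2 was the lowest library of each genotype on day 7 and replicate 3 the highest, as for Prl2c3 in Krt8–/– AECs.

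Group means of Cck were 0.327 ± 0.446, 31.3 ± 6.51, and 93.2 ± 36.3 CPM on days 1, 3, and 7 in Krt8+/+ AECs, and 0.397 ± 0.350, 23.5 ± 21.6, and 77.5 ± 68.1 CPM in Krt8–/– AECs. Day 7 was at least 1089-fold above day 0 in Krt8+/+ AECs and at least 986-fold above it in Krt8–/– AECs. The ratio of day 3 to day 1 was 105 (59.7 to 203) in Krt8+/+ AECs and 61.0 (37.4 to 107) in Krt8–/– AECs, and that of day 7 to day 3 was 3.09 (2.91 to 3.28) and 3.25 (3.04 to 3.48). Single replicates differed from these ratios, and in replicate 3 of Krt8–/– AECs the ratio of day 3 to day 1 was 5.79. In Krt8–/– AECs, Cck in replicate 2 was lower on day 7 than on day 3, at 0.398 of its level, while replicates 1 and 3 were 3.23 and 33.8 times higher. In Krt8+/+ AECs, the ratios were 2.83, 1.88, and 4.26 in replicates 1, 2, and 3.

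Per kb of exon, the order on day 7 was Prl2c2, Prl2c3, and Cck in both genotypes. In Krt8+/+ AECs, Prl2c2 was at 300 ± 236, Prl2c3 at 133 ± 61.2, and Cck at 71.4 ± 27.8 CPM per kb. In Krt8–/– AECs, they were at 206 ± 147, 105 ± 113, and 59.4 ± 52.2 CPM per kb. The libraries of neighbours in this order overlapped in both genotypes, and the order of the proliferins rests on how shared reads were divided. Among 23943 genes with counts in Krt8+/+ AECs on day 7, the levels per kb ranked 129 for Prl2c2, 359 for Prl2c3, and 737 for Cck. Sftpc, the surfactant protein gene that ranked 1 on day 0 at 180376 CPM per kb, ranked 1164 on day 7 at 47.1 CPM per kb, below all 3 members. On day 3, Cck stood between the proliferins in Krt8+/+ AECs, with ranks of 1217 for Prl2c2, 2176 for Cck, and 5936 for Prl2c3 among 25125 genes.

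The comparison of genotypes asked whether loss of Krt8 altered the members in culture. Prl2c2 in Krt8–/– AECs differed from Krt8+/+ AECs by a log2 difference of −1.03 ± 1.37 (SE) on day 1, −0.88 ± 0.70 on day 3, and −0.54 ± 0.68 on day 7. Prl2c3 differed by −2.16 ± 1.27, −0.16 ± 0.75, and −0.34 ± 0.70 on these days. For Cck, the log2 difference was 0.41 ± 1.56, −0.41 ± 0.71, and −0.27 ± 0.70. Each of the 9 differences was smaller than 2 standard errors, which were derived from the F statistic of the edgeR test and so restate it. In each, the Krt8–/– library was the higher one in 1 of 3 replicates. By edgeR's quasi-likelihood test, 0 of 9 passed an adjusted p of 0.05 and 0 had an unadjusted p under 0.05, with the smallest at 0.105 for Prl2c3 on day 1, and DESeq2 also gave 0 and 0, with the smallest unadjusted p at 0.0597. Over all genes tested, 0.0277% passed on day 0 and 0.0166% on each of days 1, 3, and 7. The standard errors of 0.68 to 0.75 on days 3 and 7 leave room for differences of more than a doubling that 3 replicates could not show.

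The sign of 4 of these differences turned when a replicate was left out. Prl2c3 was at a log2 difference of 0.04 on day 3 without replicate 1 and at 0.12 on day 7 without replicate 2, and Cck was at −1.05 on day 1 without replicate 3 and at 0.01 on day 7 without replicate 1. Leaving out replicate 2, in which Krt8–/– AECs had the higher level on day 3, moved Prl2c2 to −1.93 (unadjusted p = 0.0143, adjusted p = 1.0 in edgeR) and Cck to −1.51 (unadjusted p = 0.0417, adjusted p = 1.0 in edgeR) on that day. The change of the genotype difference over days 1, 3, and 7 was tested with 2 degrees of freedom. For 0 of 3 members it passed in edgeR, with 0 at an unadjusted p under 0.05 and the smallest at 0.398, and the counts by DESeq2 were also 0 and 0. Of all genes tested, 0.00% passed this test.

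For the sum of the 4 proliferin copies, which does not depend on how reads were divided among these 4, the mean in Krt8–/– and Krt8+/+ AECs was 0.782 ± 0.748 and 2.79 ± 1.96 CPM on day 1, 33.6 ± 11.8 and 55.2 ± 32.2 CPM on day 3, and 369 ± 301 and 509 ± 336 CPM on day 7. The sum was higher in Krt8–/– AECs in 0, 1, and 1 of 3 replicates on these days. The two-sided exact permutation test over libraries gave p = 0.2, 0.4, and 0.6, and 3 libraries against 3 cannot give less than 0.1. Within replicates, exact sign flips gave p = 0.5 on day 3 and 0.75 on day 7, where 0.25 is the smallest possible. On day 7 the sum spanned 104 to 696 CPM in Krt8–/– AECs and 206 to 871 CPM in Krt8+/+ AECs, so that the spread between replicates exceeded the difference between genotypes.

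Genes related to the members by function, together with the 20 trophoblast markers described below, were tested by day. Their lists were made with earlier results of these data known and include Prl2c5 and Prl2c1. Of 145 such genes, 72 had enough counts to be tested. Against day 0 in Krt8+/+ AECs, 29 were higher and 18 lower on day 1 (over all genes tested, 26.2% were higher and 28.5% lower), 29 higher and 19 lower on day 3 (26.1% and 27.8%), and 26 higher and 22 lower on day 7 (28.6% and 30.2%). In Krt8–/– AECs on day 7, 25 were higher and 22 lower (28.6% and 29.9%). Genes at 0 on day 0, such as Prl2c5, were tested only for their counts elsewhere and can only be called higher. Without them, 66 genes remained in each genotype. In Krt8+/+ AECs, 25, 25, and 21 were higher on days 1, 3, and 7 (25.5%, 25.3%, and 27.7% over all genes so chosen). In Krt8–/– AECs, 20 were higher on day 7 (27.7%). The 66 still hold genes with few counts on day 0, such as Nppb, and genes with few counts in culture, such as Prlr.

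Receptors of the prolactin family and of proliferin were counted on day 0 already. Igf2r was at 95.6, 69.2, and 61.4 CPM in replicates 1, 2, and 3 of Krt8+/+ AECs on day 0 and at 98.5, 129, and 132 CPM on day 7, and in Krt8–/– AECs at 94.5, 76.9, and 42.5 CPM and at 130, 201, and 119 CPM. It was higher on day 7 in 3 of 3 replicates of each genotype, by a log2 change of 0.66 ± 0.25 in Krt8+/+ AECs (adjusted p = 0.0291, edgeR) and 1.07 ± 0.25 in Krt8–/– AECs (adjusted p = 0.00114). The call in Krt8+/+ AECs was lost without replicate 2 (0.62, adjusted p = 0.112 in edgeR) or replicate 3 (0.46, adjusted p = 0.180). Ghr, the growth hormone receptor, rose from 29.9 ± 9.87 to 173 ± 35.8 CPM in Krt8+/+ AECs (log2 change 2.53 ± 0.27, adjusted p = 1.1e-07 in edgeR, 3 of 3 replicates) and from 28.6 ± 2.90 to 197 ± 31.5 CPM in Krt8–/– AECs. On day 1 in Krt8+/+ AECs, Ghr had been lower than on day 0, at 13.1 ± 5.86 CPM (log2 change −1.19 ± 0.27, adjusted p = 0.000915 in edgeR, lower in 3 of 3 replicates), a call that was lost without replicate 2 (−0.83, adjusted p = 0.0626). Prlr, the prolactin receptor, was at 1.72, 2.06, and 0.221 CPM on day 0 and at 0.136, 0, and 0 CPM on day 7 in Krt8+/+ AECs. Prlr had at most 4 counts in a library of the later days and was tested only for its day 0 counts. Its log2 change of −4.59 ± 1.43 (lower in 3 of 3 replicates) is thus given without a test. Without replicate 1, Prlr had too few counts to be tested at all.

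The rest of the prolactin family did not accompany the proliferins to a comparable level. Of 23 other family members, 1 had enough counts to be tested, and 13 had any count in Krt8+/+ AECs on day 7. Their summed level on day 7 was 2.99, 2.15, and 2.05 CPM in replicates 1, 2, and 3 of Krt8+/+ AECs and 1.60, 1.09, and 2.68 CPM in Krt8–/– AECs. The most abundant on day 7 was Prl8a9 in Krt8+/+ AECs, at 0.548 ± 0.246 CPM, and Prl, prolactin itself, in Krt8–/– AECs, at 0.652 ± 0.822 CPM. Prl3b1, a placental lactogen, and Gh had no count in either genotype on day 7.

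Whereas Cck appeared in culture, the RNA of its receptor Cckar fell. Cckar was at 37.6, 41.9, and 27.3 CPM in replicates 1, 2, and 3 of Krt8+/+ AECs on day 0, at 3.01, 2.34, and 5.49 CPM on day 1, at 0.983, 2.33, and 1.93 CPM on day 3, and at 0, 0.331, and 0.729 CPM on day 7. In Krt8–/– AECs, it was at 33.4, 41.2, and 64.2 CPM on day 0 and at 0.0571, 0.233, and 0.191 CPM on day 7. The libraries of day 0 thus lay above all later ones in both genotypes, and the levels of Cck and Cckar ran in opposite directions over the days. The log2 change of Cckar was −3.29 ± 0.49 on day 1 (adjusted p = 1.1e-05, edgeR), −4.34 ± 0.52 on day 3 (adjusted p = 5.9e-07), and −6.61 ± 0.62 on day 7 (adjusted p = 1.6e-08) in Krt8+/+ AECs, and −8.15 ± 0.68 on day 7 in Krt8–/– AECs (adjusted p = 3.6e-09), each lower in 3 of 3 replicates. Cckbr, the receptor shared with gastrin, had no count in Krt8+/+ AECs on any day and 7 counts on each of days 0 and 1 in Krt8–/– AECs. Gast, the gastrin gene, reached 0.350 ± 0.0627 CPM on day 1 and had no count on day 7 in Krt8+/+ AECs.

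Enzymes that turn a precursor such as that of Cck into an active peptide were not called more often than genes in general on day 7. In Krt8+/+ AECs, 5 were higher on day 1, or 3 without replicate 1, and 4 lower, or 2 without replicate 2 or replicate 3, beside 26.2% and 28.5% over all genes. On day 3, 6 were higher and 3 lower, beside 26.1% and 27.8%, and the lower ones became 1 without replicate 3 and 0 without replicate 1 in edgeR. Pcsk2, at 0 on day 0, is among the higher genes of both days, and without it 4 and 5 of 14 were higher. Of 16 prohormone processing genes, 15 were tested, and on day 7 Pcsk6, Cpe, Tpst2, and Ctsl were higher in both genotypes, while Pcsk4 and Pcsk7 were lower in Krt8+/+ AECs and Pcsk4 and Scg5 in Krt8–/– AECs. These 4 higher and 2 lower genes of 15 stand beside 28.6% and 30.2% over all genes in Krt8+/+ AECs. The 2 lower genes became 1 without replicate 1 or replicate 2 in Krt8+/+ AECs and without replicate 2 in Krt8–/– AECs. The median log2 change of the 15 genes was 0.21 in Krt8+/+ AECs, or 0.12 with genes without counts at their bound, and −0.22 in Krt8–/– AECs, beside 0.00 over all genes. Cpe, carboxypeptidase E, was at 14.6, 6.60, and 7.74 CPM in replicates 1, 2, and 3 of Krt8+/+ AECs on day 0 and at 292, 361, and 445 CPM on day 7, with no overlap between days. Its log2 change was 2.88 ± 0.40 on day 1 (adjusted p = 5.7e-06, edgeR), before Cck passed 1 CPM, and 5.22 ± 0.44 on day 7 (adjusted p = 4.1e-09), higher in 3 of 3 replicates, and 5.11 ± 0.44 in Krt8–/– AECs.

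Ctsl, cathepsin L, which can also cut the Cck precursor, rose in Krt8+/+ AECs from 117 ± 5.44 CPM on day 0 to 240 ± 32.7 CPM a day later and 647 ± 75.4 CPM by day 7 (log2 change on day 7 2.46 ± 0.13, adjusted p = 1.5e-11 in edgeR, 3 of 3 replicates). In Krt8–/– AECs, its log2 change on day 7 was 2.33 ± 0.13. Tpst2, a tyrosine sulfotransferase of the kind that cholecystokinin needs for full activity, rose from 26.5 ± 2.06 to 70.4 ± 8.99 CPM by day 7 in Krt8+/+ AECs (log2 change 1.41 ± 0.16, adjusted p = 3.7e-07 in edgeR, 3 of 3 replicates). Pcsk1, the convertase of endocrine cells, was at 1.33 ± 0.502, 15.9 ± 2.67, 10.5 ± 6.18, and 2.51 ± 2.50 CPM on days 0, 1, 3, and 7 in Krt8+/+ AECs. Its increase passed on day 1 (log2 change 3.54 ± 0.80, adjusted p = 0.000964 in edgeR) and day 3 (2.93 ± 0.79, adjusted p = 0.00371), in 3 of 3 replicates on each day. The mean of Pcsk1 was thus highest on day 1, when Cck was still at 0.327 CPM, and low on day 7, when Cck was highest. Pcsk2, its neuronal relative, had group means of at most 0.904 CPM, and Pam, which amidates the peptide end of cholecystokinin, was at 12.1 ± 1.87 CPM on day 0 and 12.1 ± 2.61 CPM on day 7 in Krt8+/+ AECs.

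**Figure D3:**
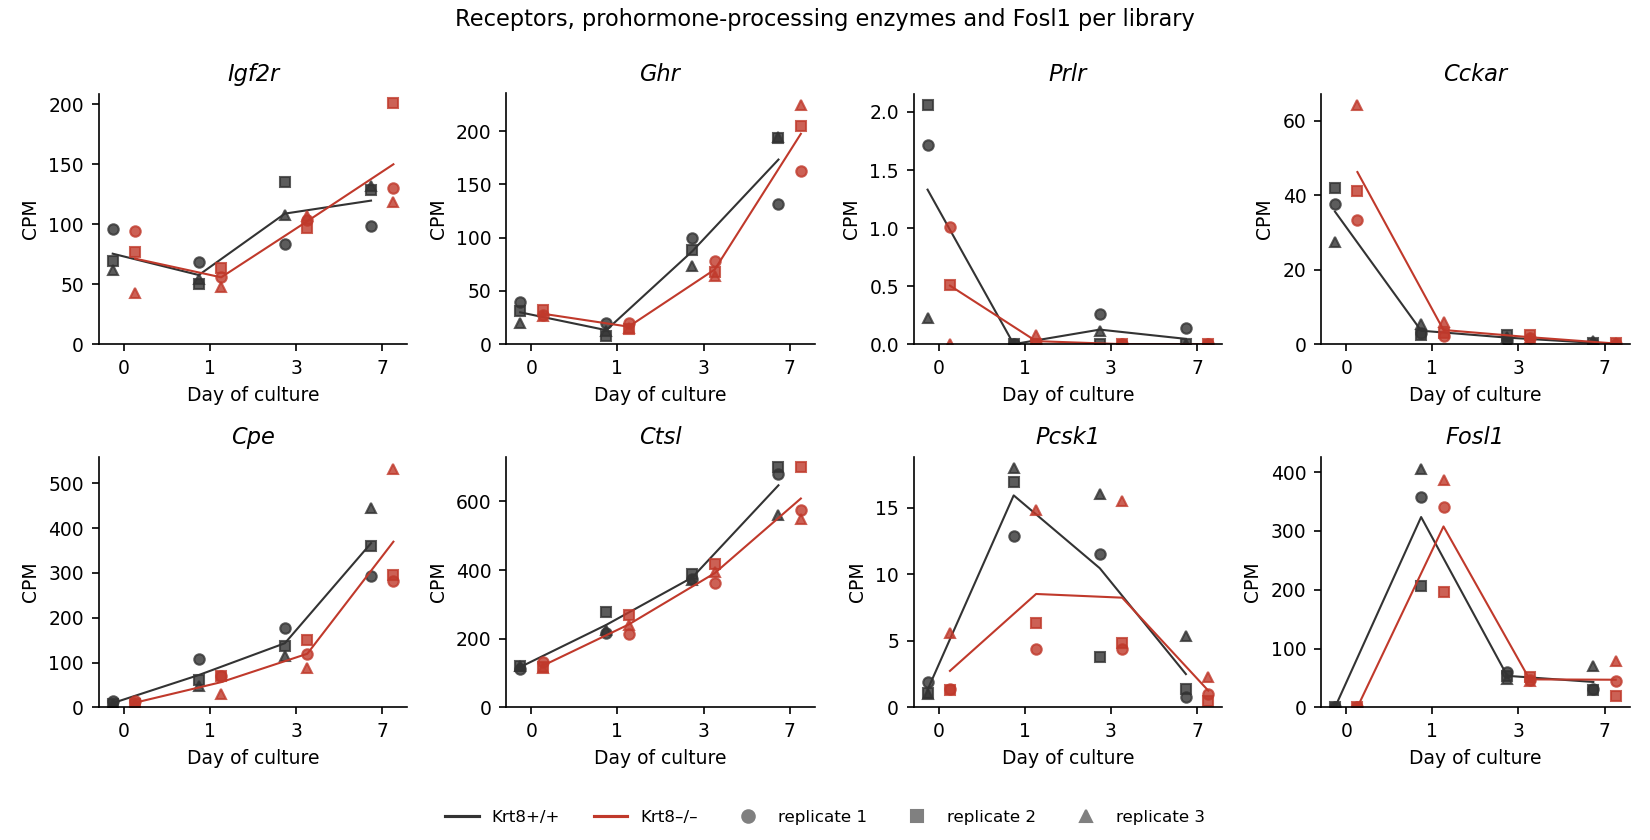
CPM of 4 receptor genes (Igf2r, Ghr, Prlr, Cckar), 3 processing enzymes (Cpe, Ctsl, Pcsk1), and Fosl1 in each of 24 libraries against the day of culture. Dark symbols stand for Krt8+/+ and red for Krt8–/–, symbols mark the 3 replicates, lines join group means, and each panel has its own scale. Cckar is highest on day 0, Pcsk1 in Krt8+/+ AECs and Fosl1 in both genotypes are highest on day 1, and Ghr, Cpe, and Ctsl are highest on day 7.

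Genes of regulated secretory granules, in which endocrine cells store hormones such as cholecystokinin, were tested as well. Of 14, 13 were tested. On day 1 in Krt8+/+ AECs, 7 were higher and 3 lower, with a median log2 change of 2.03, beside 26.2% and 28.5% over all genes. On day 3, 6 were higher and 3 lower, with a median of 1.10, beside 26.1% and 27.8%. Of those higher on day 1, Scg3, Vgf, Chga, and Snap25 had 3, 5, 9, and 9 counts over the 3 libraries of day 0. These genes, of which all but Chga were also higher on day 3, were tested for their counts in culture. The counts and medians of both days are thus descriptions. Those called on day 7 were about as many as among genes in general, with Scg2, Stx1a, and Ptprn higher and Rab3a, Rab27a, Syp, and Vamp2 lower on day 7 in Krt8+/+ AECs, beside 28.6% and 30.2% over all genes. In Krt8–/– AECs, 3 were higher (Vgf, Stx1a, and Ptprn) and 5 lower (Chgb, Rab3a, Rab27a, Syp, and Vamp2), and the latter number was 3 without replicate 3. Median log2 changes on day 7 were 0.71 and −0.88 in these genotypes. The summed level of the 14 genes was 279 ± 17.9 CPM on day 0 and 78.3 ± 12.6 CPM on day 7 in Krt8+/+ AECs, and Vamp2 was the most abundant on both days. Ptprn, a granule membrane protein, rose from 0.389 ± 0.153 to 24.1 ± 7.56 CPM in Krt8+/+ AECs (log2 change 5.87 ± 0.67, 3 of 3 replicates). It had 14 counts over the 3 libraries of day 0 there, too few to pass the filter by themselves, so no test of it is given. Chga, chromogranin A, which marks endocrine granules, was at 0.519 ± 0.141 CPM on day 7, when Cck was at 93.2 CPM.

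Other peptide hormone genes were called higher in culture as well. Of 50 others, 22 were tested, and on day 7 14 were higher and 3 lower in Krt8+/+ AECs and 13 and 3 in Krt8–/– AECs, beside 28.6% and 30.2% over all genes in the former and 28.6% and 29.9% in the latter. Of the higher genes, Adm2, Npy, Vip, and Gal had no count on day 0 in Krt8+/+ AECs, and Pyy, Vip, Gal, and Cartpt had none in Krt8–/– AECs. Without genes at 0 on day 0, 10 of 18 were higher in Krt8+/+ AECs and 9 of 17 in Krt8–/– AECs, beside 27.7% over all genes so chosen in each. The median log2 changes were 3.39 and 2.54 in Krt8+/+ and Krt8–/– AECs, or 3.11 and 2.37 with genes without counts at their bound. Some of the 18 genes had few counts on day 0 and were tested for their counts in culture. In Krt8+/+ AECs, Nppb had 2 and Pyy 3 counts on day 0. The counts of higher genes and the medians are thus descriptions. Edn1, endothelin 1, rose from 1.07 ± 0.867 to 144 ± 48.6 CPM in Krt8+/+ AECs (log2 change 7.13 ± 0.53, 3 of 3 replicates), and Adm, adrenomedullin, from 0.795 ± 0.526 to 46.6 ± 12.4 CPM (5.72 ± 0.67). Adm had already reached 89.8 ± 24.6 CPM on day 1, when the summed proliferins were at 2.79 CPM. Penk, proenkephalin, likewise was highest on day 1, at 18.8 ± 3.69 CPM (log2 change 4.94 ± 0.63, 3 of 3 replicates). Edn1, Adm, and Penk were low on day 0 and may have passed the filter by their counts in culture, so no test of them is given. Edn3, endothelin 3, went the other way, from 49.0 ± 7.30 to 0.500 ± 0.436 CPM on day 7 (−6.54 ± 0.66, adjusted p = 5.0e-08 in edgeR, lower in 3 of 3 replicates). Apart from Edn1, the peptide hormone genes named here were below the mean of Cck on day 7.

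The proliferin promoter is a classic binding region of AP-1 and the glucocorticoid receptor, and that of Cck carries an element bound by proteins of the CREB and AP-1 families. Of 14 genes of these factors, 13 were tested, and on day 7 Fosl1 and Fosl2 were higher in both genotypes, while 9 were lower in Krt8+/+ AECs, or 5 without replicate 2, and 8 in Krt8–/– AECs. Over all genes, 28.6% were higher and 30.2% lower in Krt8+/+ AECs, and 28.6% and 29.9% in Krt8–/– AECs. Median log2 changes were −0.71 and −0.79. Fosl1 was at 0.381, 0, and 0.221 CPM in replicates 1, 2, and 3 of Krt8+/+ AECs on day 0, at 358, 207, and 406 CPM on day 1, at 59.6, 53.8, and 47.8 CPM on day 3, and at 30.5, 29.1, and 70.3 CPM on day 7. It was thus highest on day 1, with no overlap with other days, whereas the members were highest on day 7. The log2 change of Fosl1 was 10.39 ± 0.70 on day 1 (adjusted p = 4.7e-10, edgeR) and 7.49 ± 0.69 on day 7 (adjusted p = 1.4e-08) in Krt8+/+ AECs, and 7.14 ± 0.65 on day 7 in Krt8–/– AECs, in 3 of 3 replicates each. Fosl2 rose from 16.2 ± 3.32 to 49.0 ± 2.15 CPM by day 7 (1.59 ± 0.21, adjusted p = 1.8e-06 in edgeR, 3 of 3 replicates). Fos fell from 286 ± 255 to 7.20 ± 1.55 CPM (−5.31 ± 0.70, adjusted p = 1.7e-06 in edgeR, lower in 3 of 3 replicates), and Nr3c1, the glucocorticoid receptor, was at 102 ± 8.41 CPM on day 0 and 61.5 ± 21.6 CPM on day 7.

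Promoters of Cck, Prl2c3, and Prl2c5 were read from RefSeq (GRCm38.p6), where 2 of the 3 members matched an entry, and are shown because the members appeared together and so that the copies can be compared. Each line gives the 250 bases upstream of the RefSeq gene start, which for Prl2c5 is not the same base as in GENCODE, 5′ to 3′ on the strand of the gene, for Cck at chr9:121495695-121495944 (minus strand), Prl2c3 at chr13:12800080-12800329 (minus strand), and Prl2c5 at chr13:13182466-13182715 (plus strand). Capitals mark matches to TGANTCA, a loosened form of the AP-1 motif with any base (N) in the middle, or to TGCGTCA, a CRE-like element. The letters were chosen with these sequences in view.
Cck: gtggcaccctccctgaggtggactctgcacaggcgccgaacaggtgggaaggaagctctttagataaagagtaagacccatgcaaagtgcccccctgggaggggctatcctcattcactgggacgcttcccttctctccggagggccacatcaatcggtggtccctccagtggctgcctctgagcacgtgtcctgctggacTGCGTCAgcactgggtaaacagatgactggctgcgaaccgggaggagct
Prl2c3: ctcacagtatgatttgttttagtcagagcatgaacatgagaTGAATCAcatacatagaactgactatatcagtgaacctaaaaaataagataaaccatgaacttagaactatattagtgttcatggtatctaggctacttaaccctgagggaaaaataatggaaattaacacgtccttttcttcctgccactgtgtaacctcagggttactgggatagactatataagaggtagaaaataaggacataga
Prl2c5: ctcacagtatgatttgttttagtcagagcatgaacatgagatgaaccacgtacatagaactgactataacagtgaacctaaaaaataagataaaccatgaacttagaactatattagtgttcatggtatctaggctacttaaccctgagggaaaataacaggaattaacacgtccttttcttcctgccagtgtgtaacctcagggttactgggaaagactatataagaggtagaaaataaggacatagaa
Both strands were searched. TGANTCA occurred in Prl2c3, as TGAATCA, with A at the open base, at position −209 from the gene start. This loose form occurred in 6.75% of 32851 mouse promoters of the same length. TGCGTCA occurred in Cck at position −49 and in 1.75% of the promoters, and the full CRE, TGACGTCA, found in 1.55%, was in none of the 3 windows. Cck also held 3 matches to CANNTG, the E-box, and 66.2% of promoters held at least 1. A match describes letters and is not evidence of binding, and a window without a match may hold other forms of these sites, which were not searched. The Cck window had a GC content of 60.0%, against 35.2% for Prl2c3 and 36.4% for Prl2c5. The windows of Prl2c3 and Prl2c5 were 96.8% identical, with 8 mismatches and 2 gap positions, although Prl2c3 reached 181 CPM in Krt8+/+ AECs on day 7 and Prl2c5 1.06 CPM, with the reservation about shared reads given above.

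For each member, the genes most like it were taken as those with the highest Pearson r of log2 CPM over the 24 libraries, among 18043 genes. All 24 libraries share the course of culture, so these values are descriptive. Prl2c2 was followed most closely by Grem1 (r = 0.979), a secreted BMP antagonist, and by Bnip2, Tagln, Fermt2, and Masp1 (0.970). Grem1 had no count on day 0 and was at 163 ± 43.5 CPM on day 7 in Krt8+/+ AECs and 145 ± 72.2 CPM in Krt8–/– AECs. Prl2c3 was followed by Rhoc (0.976), a small GTPase, and by Bdnf, Cald1, Nexn, and Tstd3 (0.963). Bdnf, a neurotrophin, was at 0.696, 3.96, and 127 CPM on days 0, 1, and 7 in Krt8+/+ AECs. Cck was followed by Uaca (0.978) and by Dlx2, Tgfb1i1, Cks1b, and AC132253.9 (0.970). Dlx2, a homeobox factor, was at 0.0361 CPM on day 0 and 9.84 CPM on day 7 in Krt8+/+ AECs.

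The labelled cell type was checked against its markers. The 10 AEC2 markers summed to 265364, 335130, and 348908 CPM in replicates 1, 2, and 3 of Krt8+/+ AECs on day 0, with Sftpc the most abundant, and 10 of 10 were lower on day 7 in both genotypes, beside 30.2% of all genes in Krt8+/+ AECs and 29.9% in Krt8–/– AECs. On day 7, when the members were highest, the AEC2 sum was 3223, 1060, and 305 CPM in Krt8+/+ AECs and 1737, 610, and 241 CPM in Krt8–/– AECs, with Lyz2 the most abundant. Replicate 3 thus had the lowest AEC2 sum of each genotype and the highest Prl2c2, Prl2c3, and Cck. Of the 10 transitional markers, Krt8 itself included, 9 were higher on day 7 in Krt8+/+ AECs and 8 in Krt8–/– AECs, where Areg was lower, beside 28.6% higher over all genes in both. Of the 10 AEC1 markers, 8 were higher and 1 (Aqp5) lower in Krt8+/+ AECs, and 7 were higher and 2 (Ager and Aqp5) lower in Krt8–/– AECs, or 1 lower without replicate 1 or replicate 3. Transitional markers summed to 17826, 20654, and 13271 CPM on day 7 in Krt8+/+ AECs, with Krt8 the most abundant. AEC1 markers, with Ager the most abundant, summed to 2536, 2958, and 3129 CPM on day 0 and 1809, 2358, and 3353 CPM on day 7 in Krt8+/+ AECs, and to 3551, 3337, and 3667 CPM and 1920, 2775, and 2386 CPM in Krt8–/– AECs, so that the mean sum was lower on day 7 in both genotypes. No marker of either list was at 0.

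The summed level of fibroblast markers, most of it Fn1 on day 7, was higher on days 3 and 7 than on day 0. The 12 markers summed to 1105, 539, and 315 CPM on day 0, 4583, 6910, and 4677 CPM on day 3, and 5960, 10237, and 8415 CPM on day 7 in replicates 1, 2, and 3 of Krt8+/+ AECs, and to 8631, 12459, and 10450 CPM on day 7 in Krt8–/– AECs. On day 7 in Krt8+/+ AECs, the fibroblast sum, Prl2c2, and Prl2c3 were lowest in replicate 1, and Cck was lowest in replicate 2, where the sum was highest. In Krt8–/– AECs, the sum was highest in replicate 2, where all 3 members were lowest. On day 7, 7 of the 12 were higher in both genotypes and 3 were lower in Krt8+/+ AECs, or 1 without replicate 2, and 2 in Krt8–/– AECs, or 4 without replicate 3, beside 28.6% higher over all genes in both genotypes and 30.2% and 29.9% lower. Fn1, fibronectin, the most abundant on day 7, rose from 37.0 ± 40.4 to 5223 ± 1637 CPM in Krt8+/+ AECs (log2 change 7.12 ± 0.72, adjusted p = 4.6e-08 in edgeR, 3 of 3 replicates), and Col1a1 from 53.9 ± 41.0 to 521 ± 208 CPM (3.27 ± 0.57). Dcn, decorin, a marker of resident lung fibroblasts, fell from 211 ± 89.0 to 18.5 ± 8.49 CPM (−3.51 ± 0.38, 3 of 3 replicates). None of the 12 was at 0 on day 7. The part of fibroblasts in the proliferin and Cck counts was not tested.

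Markers of the cell types that make these hormones elsewhere were summed in the same way. Of 20 trophoblast markers, 12 had no count in Krt8+/+ AECs on day 7, among them Tpbpa, Gcm1, Hand1, Ctsq, and Psg17. The trophoblast sum on day 7 was 94.7, 26.9, and 3.97 CPM in replicates 1, 2, and 3 of Krt8+/+ AECs and 44.8, 14.9, and 4.59 CPM in Krt8–/– AECs, with Plet1 the most abundant, which was at 70.1 ± 20.5 CPM on day 0 already. Elf5 and Ascl2 were the 2 lower genes of 3 tested on day 7 in both genotypes, beside 30.2% and 29.9% over all genes, or 1 in Krt8–/– AECs without replicate 2, and without replicate 2 1 of the list was higher in each genotype. Replicate 3, with the highest proliferin sum of each genotype, had the lowest trophoblast sum. That sum was almost all Plet1, which held a mean of 40.9 of 41.9 CPM in Krt8+/+ AECs and 20.8 of 21.4 CPM in Krt8–/– AECs. Its order over replicates thus says little about the other trophoblast markers. The 10 neuroendocrine markers summed to 59.2, 60.0, and 68.3 CPM on day 7 in Krt8+/+ AECs and to 55.4, 55.5, and 50.4 CPM in Krt8–/– AECs, of which Uchl1 alone held a mean of 53.4 and 49.3 CPM, and Neurod1 was at 0 in every group. Neuroendocrine sums were highest on day 1, at 134, 260, and 201 CPM in Krt8+/+ AECs, when Cck had at most 10 counts in a library. Most of this was Uchl1 as well, with a mean of 166 of 199 CPM. The part of these cell types in the counts of the members was not tested.

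Other cell types gave these sums on day 7 in replicates 1, 2, and 3 of Krt8+/+ AECs. The 8 mesothelial markers summed to 1576, 1897, and 1008 CPM, almost all from Msln, while Upk3b was at 1.40 ± 0.693 CPM. The 12 macrophage markers, with Cd68 the most abundant, summed to 215, 71.3, and 22.1 CPM, and were lowest in replicate 3, where the members were highest. Endothelial markers (8 genes, Kdr the most abundant, Pecam1 at 0) summed to 3.54, 2.57, and 3.18 CPM. Neutrophil markers (6 genes, S100a8 the most abundant, S100a9 at 0) summed to 1.50, 0.580, and 0.0662 CPM, basal markers (6 genes, Krt14 the most abundant, Trp63 at 0) to 6.60, 9.20, and 1.32 CPM, and club or ciliated markers (8 genes, Foxj1 the most abundant, Scgb3a2 at 0) to 35.6, 38.0, and 26.8 CPM. Each of the last 4 sums was below the level of Prl2c2, Prl2c3, and Cck in the same Krt8+/+ library. This did not hold in Krt8–/– AECs, where replicate 2 had a club or ciliated sum of 36.3 CPM and Cck at 18.7 CPM on day 7. The part of these cell types in the results was not tested.

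These results have limits. The members were selected on the counts that describe them, so the size of their increase may be overstated. With 3 replicates per group, only large differences between genotypes in Prl2c2, Prl2c3, or Cck could pass the test. Day 0 and the later days differ in time, in culture, and in the mixture of cells at once, and RNA of a hormone gene does not show that the peptide was made or secreted. Counts of Prl2c2 and Prl2c3 depend on how shared reads were divided.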

How the data were processed

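The deposited count table of the authors was used, with whole-number read counts per gene for 24 libraries. According to the submitters' processing notes, reads were trimmed with cutadapt 2.3, aligned to GRCm38 with STAR 2.7.8a, and counted with RSEM 1.3.3. The counts are whole numbers, and whether they were rounded or come from another counter is not known. Genes were kept by filterByExpr of edgeR (minimum count 10, minimum total count 15), which left 18046, and libraries were scaled with TMM. All 24 libraries were fitted together by group in edgeR 4.0.16 with the quasi-likelihood test (16 residual degrees of freedom) under R 4.3.3, with DESeq2 1.42.0 as the alternative. Each replicate number stands for 1 batch label. Other alternatives were DESeq2 size factors, no filter, blocking by replicate, fits without 1 replicate, and only the 6 libraries compared. Genes named are the members, genes of the lists, with those past the threshold first, the 5 genes most like each member, and the 10 highest genes on day 7 among those without counts on day 0. The members and the lists were chosen with earlier results of these data known. Standard errors in edgeR were taken as the absolute log2 change divided by the square root of the F statistic. The code was tested on simulated data. Some marker lists are not reported.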

Additional observations from a re-analysis of the deposited data

How the results depend on the processing

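The genotype difference of the members passed an adjusted p of 0.05 under none of the alternatives. Of 91 alternative tests, 4 had an unadjusted p under 0.05, and the smallest adjusted p was 0.861. Leaving out a replicate turned the sign of 4 log2 differences. Over all alternatives, Prl2c2 ran from −1.79 to −0.06 on day 1, from −1.93 to −0.17 on day 3, and from −1.01 to −0.24 on day 7. Prl2c3 ran from −2.44 to −2.02 on day 1, from −0.326 to 0.0441 on day 3 and from −1.39 to 0.12 on day 7, and Cck from −1.05 to 2.55 on day 1, from −1.51 to −4.97e-05 on day 3, and from −1.003 to 0.0122 on day 7.

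With the replicate as a block, the log2 differences on days 1, 3, and 7 were −0.97, −0.62, and −0.60 for Prl2c2, −2.20, −0.20, and −0.46 for Prl2c3, and 0.40, −0.35, and −0.31 for Cck, all with an adjusted p of 1.0 in edgeR. The block changed no call of a member. With it, 2 AEC1 markers and not 1 were lower on day 7 in Krt8+/+ AECs, as in DESeq2.

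The genes that differed between genotypes on days 0, 1, 3, and 7 numbered 5, 3, 3, and 3 in edgeR, 9, 5, 8, and 3 in DESeq2, and 10, 6, 3, and 3 without a filter. Without replicate 2 they numbered 2, 2, 3, and 2, and without replicate 3 they numbered 5 on each day.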

Other observations

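Prl2c2 and Cck belong to a small set of genes that were silent on day 0 and abundant on day 7. Of 29148 genes with 0 counts in all 6 libraries of day 0, 2810 had counts on day 7 and 22 had a mean of at least 10 CPM. The highest by mean CPM on day 7 were Prl2c2 (276), Grem1 (154), Mmp13 (85.8), Cck (85.3), Dgkk (61.9), and Wnt10a (40.4). Grem1 encodes a secreted BMP antagonist, Mmp13 a collagenase, and Wnt10a a WNT ligand. Mmp13 was at 84.8 ± 43.1 CPM in Krt8+/+ AECs and 86.8 ± 49.4 CPM in Krt8–/– AECs on day 7, and Wnt10a at 35.7 ± 4.85 and 45.2 ± 12.4 CPM. These genes were selected on their levels, and no test was made.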
